A study of Rattus norvegicus with 372 samples.

Results

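The 9 genes described here encode liver enzymes that break down amino acids: Tat, Hpd, Hgd and Fah for tyrosine, Tdo2, Kmo and Haao for tryptophan, Sds for serine and Hal for histidine. They were taken by name from the probe columns of the whole transcriptome (WT) assay, which measured 20946 genes with 22253 probes. All 9 were found, each with 1 probe. Of these, 8 were among the 10191 genes that averaged 10 counts or more per well and were tested. Sds was not, and its counts are given without a test. On the smaller surrogate (ST) assay of 2604 genes, 7 of the 9 were present, Tat and Hal were not, and 6 passed the filter.

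The cells were primary hepatocytes from male Wistar rats, held between 2 layers of collagen in plate wells. They were treated for 24 h with 14 chemicals, each at 2 concentrations, which made 28 treatments. Vehicle wells received 0.5% DMSO, the solvent that every treated well also received, and medium wells received neither solvent nor chemical. The culture medium of all wells held dexamethasone, insulin and EGF. Each of the 2 batches came from 1 rat and was prepared and sequenced as a unit, with 3 wells per treatment, so the wells of a batch are technical replicates and the design holds 2 animals. Batch 1 had 3 vehicle and 3 medium wells and batch 2 had 6 of each. WT depth was 2289425 to 8975207 counts per well over 186 wells. The hepatocyte markers were present as labelled, and in vehicle wells the 7 markers from Alb to Cps1 summed to 37051 to 44232 CPM (counts of a gene scaled to the same library total in every well). The 5 Kupffer cell and leukocyte markers summed to 19.4 to 40.1 CPM in the same wells and the 4 cholangiocyte markers to 33.1 to 49.0 CPM, of which Epcam made up 27.3 to 44.3 CPM while Krt7 was at 0 in all 9. The 4 stellate cell markers in the table summed to 13.4 to 40.6 CPM, of which Col1a2 made up 13.3 to 39.7 CPM. Col1a1 was at 0 in 7 of the 9 wells and Des in 6. The 4 endothelial markers summed to 1.38 to 3.37 CPM, near the floor, so percentages of that sum rest on few counts.

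In the liver, amino acids not needed for protein are taken apart by chains of enzymes whose products feed glucose synthesis, ketone bodies or the supply of NAD. Tat, Tdo2 and Sds are textbook cases of enzymes raised during fasting, by glucocorticoids and, for Tat and Sds, by cyclic AMP, and each acts where its amino acid enters breakdown. Hpd, Hgd and Fah follow Tat in a single line from tyrosine to fumarate and acetoacetate, while Kmo and Haao act further down the tryptophan route, on kynurenine and 3-hydroxyanthranilate. Hal removes ammonia from histidine as its first step.

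The upstream sequences of 3 members are shown because Tat and Tdo2 had the largest called rises of the tested members and Kmo had none that passed the test. RefSeq gave start sites on the GRCr8 assembly for 7 members (not Sds or Hal), and the 250 bases before each start were searched on both strands for the CCAAT box, the TATA box (TATAAA), the cyclic AMP half-site TGACG and the glucocorticoid half-site AGAACA. Capitals mark every match to these letters or to their reverse complement. Tat lies on the plus strand (chr19:54856354-54856603), Tdo2 on the minus strand (chr2:169585587-169585836) and Kmo on the plus strand (chr13:90089271-90089520).
Tat: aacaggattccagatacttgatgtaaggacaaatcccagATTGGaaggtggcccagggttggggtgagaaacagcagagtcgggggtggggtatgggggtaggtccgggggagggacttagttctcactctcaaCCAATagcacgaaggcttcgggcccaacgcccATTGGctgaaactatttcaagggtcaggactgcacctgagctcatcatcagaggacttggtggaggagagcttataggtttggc
Tdo2: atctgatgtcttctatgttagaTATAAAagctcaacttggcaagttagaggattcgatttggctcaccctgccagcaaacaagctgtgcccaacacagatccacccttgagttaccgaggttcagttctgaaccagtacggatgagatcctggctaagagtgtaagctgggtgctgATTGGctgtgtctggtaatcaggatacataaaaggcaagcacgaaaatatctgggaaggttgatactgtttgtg
Kmo: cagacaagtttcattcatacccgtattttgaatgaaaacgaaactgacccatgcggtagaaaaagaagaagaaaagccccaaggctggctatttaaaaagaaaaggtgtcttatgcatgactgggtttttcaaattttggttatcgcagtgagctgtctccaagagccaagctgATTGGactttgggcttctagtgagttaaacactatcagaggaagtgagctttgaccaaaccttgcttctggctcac
CCAAT occurred in 4 of the 7 windows (Tat, Hgd, Tdo2 and Kmo) and in 34.0% of the 33469 RefSeq windows of this length. TATAAA occurred only in Tdo2 among the 7, at 228 to 223 bases before the start, and in 12.9% of all windows. AGAACA occurred only in Haao among the 7 and in 17.5% of all windows. TGACG was in none of the 7 and in 18.2% of all windows. These are matches of letters in a short window and no test was run on them.

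A gene was called when the quasi-likelihood test of edgeR gave an adjusted p under 0.05 in both batches with the same sign of the log2 fold change (L2FC). Across the 28 treatments, 26 of the 224 member by treatment pairs were called higher than vehicle and 49 were called lower, which is 11.6% and 21.9% of pairs. Over all tested genes the shares were 8.13% higher and 7.70% lower. At the 14 high concentrations 21 pairs were higher and 46 lower of 112, against a background of 14.3% and 14.0%. At the 14 low concentrations 5 were higher and 3 lower, against 1.93% and 1.44%. A further 49 pairs passed the threshold in one batch alone, and 1 pair (Tdo2 with sulfasalazine 100 µM) passed it in both batches with opposite signs.

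**Figure D1:**
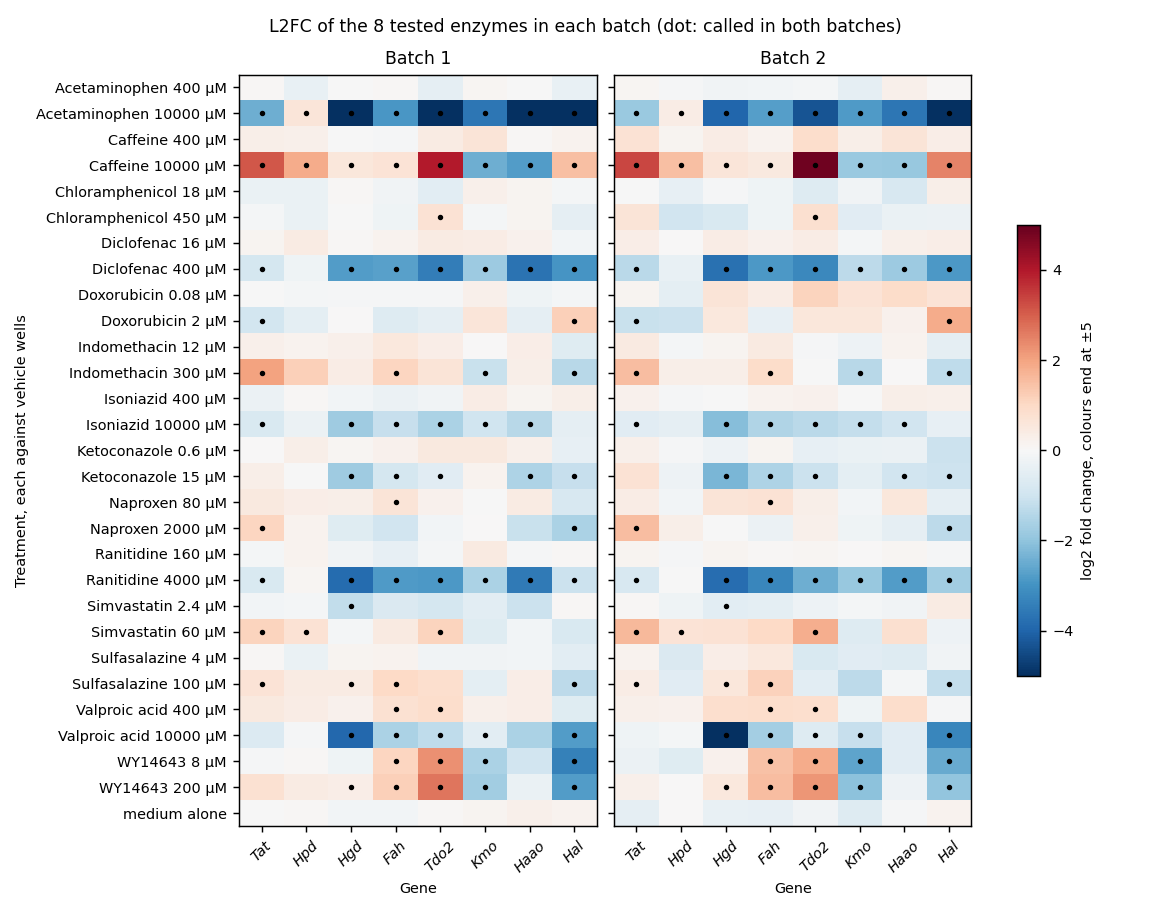
L2FC of the 8 tested enzymes (columns) against vehicle for 28 treatments and medium alone (rows), in batch 1 (left) and batch 2 (right), red for higher and blue for lower, with colours ending at 5 in either direction and a black dot for pairs called in both batches. The row of caffeine 10000 µM holds 6 red and 2 blue called pairs, and the row of acetaminophen 10000 µM holds 7 blue called pairs and 1 pale red one.

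Tat, the aminotransferase that takes the amino group from tyrosine, was called higher in 5 treatments and lower in 5, all at high concentrations. Its largest rise was with caffeine 10000 µM. In batch 1 the caffeine wells read 229.6, 266 and 349 CPM, while the vehicle wells read 34.1, 38.4 and 40.4 CPM. In batch 2 the caffeine wells read 275, 295 and 329.7 CPM against a lowest, median and highest vehicle well of 27.9, 32.2 and 33.5 CPM. No treated well overlapped a vehicle well in either animal. Tat mRNA was 8.64-fold higher in batch 1 (L2FC 3.11 ± 0.18 SE, adjusted p = 6.69e-25 by edgeR) and 10.2-fold higher in batch 2 (L2FC 3.35 ± 0.13, adjusted p = 2.15e-35).

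Indomethacin 300 µM, naproxen 2000 µM and simvastatin 60 µM also raised Tat, with L2FC between 1.09 and 2.03 over both batches. With indomethacin the mean was 126 ± 5.84 CPM in batch 1 and 83.8 ± 19.6 CPM in batch 2 (SD, n = 3 wells), against vehicle means of 37.6 ± 3.21 CPM (n = 3) and 31.6 ± 2.08 CPM (n = 6). Sulfasalazine 100 µM was called higher at L2FC 0.69 and 0.36, a call that was lost with scaling to total counts, with no filter on counts, with same-plate vehicle wells and when any 1 treated replicate was left out. That call was also lost without batch 2 vehicle replicate 3, 4 or 5.

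The largest fall of Tat was with acetaminophen 10000 µM, where wells read 3.62, 4.67 and 6.46 CPM in batch 1 and 3.04, 7.44 and 9.24 CPM in batch 2. All 6 wells lay below every vehicle well. The L2FC was -2.45 ± 0.22 (adjusted p = 6.32e-16) and -1.86 ± 0.17 (adjusted p = 5.81e-16). Diclofenac 400 µM, doxorubicin 2 µM, isoniazid 10000 µM and ranitidine 4000 µM lowered Tat less, with L2FC from -1.35 to -0.56.

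Hpd, the dioxygenase that turns 4-hydroxyphenylpyruvate into homogentisate, moved least often: 3 treatments were called higher and none lower. Without adjustment 1 treatment was lower in both batches at p under 0.05, and DESeq2 also called 0. With caffeine 10000 µM, wells read 383, 547 and 582 CPM in batch 1 against 132, 162 and 186 CPM in vehicle. In batch 2 they read 491, 707 and 890.1 CPM against a vehicle range of 233 to 314 CPM with a median of 258 CPM. The groups did not overlap, and Hpd was 3.65-fold (L2FC 1.87 ± 0.22, adjusted p = 3.35e-11) and 2.80-fold higher (L2FC 1.49 ± 0.16, adjusted p = 2.32e-13).

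Simvastatin 60 µM raised Hpd by L2FC 0.73 and 0.67, a call lost when treated replicate 2 or batch 1 vehicle replicate 3 was left out. Acetaminophen 10000 µM was called higher at L2FC 0.60 and 0.39. In CPM that treatment gave 179 ± 22.2 against 160.0 ± 27.5 in batch 1 and 269 ± 103 against 269.6 ± 34.1 in batch 2. With scaling to total counts the batch 2 value was -0.0035 and the call was lost, as it was with no filter, with only the compared wells, with same-plate vehicle wells and without treated replicate 1 or 2. Leaving out batch 1 vehicle replicate 3 or batch 2 vehicle replicate 2 also ended the call. The ST assay also called Hpd higher with acetaminophen (L2FC 1.00 ± 0.21 and 0.76 ± 0.14). The other 7 tested members fell in these wells.

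Hgd opens the ring of homogentisate, and it was called lower in 7 treatments and higher in 3. The largest fall was with valproic acid 10000 µM. The wells read 6.24, 6.64 and 8.22 CPM in batch 1 against 88.3, 95.4 and 105 CPM in vehicle. In batch 2 they read 0.801, 1.35 and 1.61 CPM (6 to 12 counts) against a lowest, median and highest vehicle well of 35.1, 45.4 and 51.5 CPM. All treated wells were far below all vehicle wells. The fall was 15.4-fold in batch 1 (L2FC -3.94 ± 0.14, adjusted p = 5.40e-35) and 42.1-fold in batch 2 (L2FC -5.40 ± 0.24, adjusted p = 7.73e-33), and the interaction of batch and treatment was itself called (difference -1.47, adjusted p = 0.000144).

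Hgd also fell with acetaminophen 10000 µM to a median well of 2.01 CPM in batch 1 and 2.03 CPM in batch 2 (L2FC -5.05 and -3.96) and with ranitidine 4000 µM to wells at 4.94 to 7.20 CPM and 2.29 to 3.57 CPM (L2FC -3.85 and -3.80). Diclofenac 400 µM lowered it by L2FC -2.80 and -3.72. Ketoconazole 15 µM (L2FC -1.77 and -2.30) and isoniazid 10000 µM (L2FC -1.78 and -2.14) lowered it less. The low concentration of simvastatin, 2.4 µM, was also called lower at L2FC -1.22 and -0.54, but this call was lost when any 1 treated replicate was left out, with same-plate vehicle wells and with total counts. Leaving out batch 2 vehicle replicate 1, 4 or 5 also ended this call.

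The largest rise of Hgd was small. With caffeine 10000 µM the wells read 113, 119.5 and 140.2 CPM in batch 1, above all vehicle wells. In batch 2 they read 37.8, 62.6 and 85.4 CPM and overlapped the vehicle wells. The L2FC was 0.58 ± 0.11 (adjusted p = 1.26e-05) and 0.60 ± 0.14 (adjusted p = 0.000151). Without the treated replicate 2 the batch 2 value was 0.27 and no longer passed (adjusted p = 0.205). The rises called with sulfasalazine 100 µM (L2FC 0.41 and 0.56) and WY14643 200 µM (0.31 and 0.51) were lost with total counts among other settings, under which the WY14643 value in batch 1 was -0.02.

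Fah, which splits fumarylacetoacetate in the last step of tyrosine breakdown, was called higher in 7 treatments and lower in 6. Its largest rise was with WY14643 200 µM. WY14643 is a ligand of the nuclear receptor PPARα, which drives fatty acid oxidation genes in rodent liver. The wells read 144, 195 and 197 CPM in batch 1 against 95.7, 96.3 and 100.5 CPM in vehicle. In batch 2 they read 139, 174 and 182 CPM against a vehicle range of 56.0 to 72.4 CPM (median 64.1 CPM). The groups did not overlap, with L2FC 1.21 ± 0.18 (adjusted p = 4.14e-08) and 1.54 ± 0.17 (adjusted p = 4.90e-12). At 8 µM WY14643 Fah was at 157 ± 32.5 CPM and 156 ± 30.9 CPM, with L2FC 1.08 and 1.48.

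Fah was the member most often raised at low concentrations, with valproic acid 400 µM (L2FC 0.76 and 0.88) and naproxen 80 µM (0.63 and 0.71) beside WY14643 8 µM. The naproxen call was lost with total counts, without treated replicate 1 and without batch 1 vehicle replicate 3. Sulfasalazine 100 µM (1.01 and 1.15) and indomethacin 300 µM (1.08 and 0.94) raised it about as far as WY14643. The rise with caffeine 10000 µM (0.68 and 0.48) was lost with total counts, with same-plate vehicle wells and without treated replicate 2.

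The largest fall of Fah was with ranitidine 4000 µM, an H2 receptor blocker. Wells read 11.1, 11.5 and 14.2 CPM in batch 1 and 5.04, 5.79 and 8.25 CPM in batch 2, all below the vehicle wells. The L2FC was -2.83 ± 0.20 (adjusted p = 1.17e-19) and -3.26 ± 0.24 (adjusted p = 1.29e-20). Acetaminophen 10000 µM (-2.93 and -2.75) and diclofenac 400 µM (-2.72 and -2.89) were close to it, and valproic acid 10000 µM, isoniazid 10000 µM and ketoconazole 15 µM lowered Fah by L2FC -1.70 to -0.87.

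Tdo2, the dioxygenase that opens the ring of tryptophan and starts its breakdown in liver, moved far in both directions, with 6 treatments called higher and 6 lower. With caffeine 10000 µM the wells read 2654, 3160.4 and 3526 CPM in batch 1 against 187, 239.8 and 274 CPM in vehicle. In batch 2 they read 2421, 3126 and 3274 CPM against a lowest, median and highest vehicle well of 79.8, 113 and 136 CPM. The lowest caffeine well was many times the highest vehicle well. The rise was 15.5-fold (L2FC 3.95 ± 0.25, adjusted p = 1.73e-22) and 28.8-fold (L2FC 4.85 ± 0.20, adjusted p = 3.76e-35).

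Vehicle levels of Tdo2 differed between the animals, 2.12 times as high in batch 1 as in batch 2, while the caffeine means were near each other (3113 ± 438 and 2940.4 ± 456 CPM). The L2FC accordingly differed by 0.90 between batches (interaction adjusted p = 0.0355). Within batch 2 the 3 vehicle wells of plate 3 read 130 to 136 CPM and those of plate 2, the plate of caffeine, 79.8 to 95.5 CPM.

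The next largest rise of Tdo2 was with WY14643, to 1194 ± 48.4 CPM in batch 1 and 452 ± 14.7 CPM in batch 2 at 200 µM (L2FC 2.68 and 2.22) and to 866 ± 107 and 345 ± 63.7 CPM at 8 µM (L2FC 2.27 and 1.85). Simvastatin 60 µM raised it by L2FC 1.10 and 1.80 and valproic acid 400 µM by 0.89 and 0.85. Without vehicle replicate 3 of batch 1 the valproic acid value there was 0.73 and no longer passed (edgeR adjusted p = 0.0508). Chloramphenicol 450 µM raised Tdo2 by 0.71 and 0.82, a call lost without treated replicate 3 and when only the compared wells were fitted. That call was also lost without batch 1 vehicle replicate 1 or 3. Tdo2 was the single member called with chloramphenicol, where 2.47% of all genes were called higher and 4.78% lower.

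The largest fall of Tdo2 was with acetaminophen 10000 µM, to 2.62, 2.75 and 3.69 CPM in batch 1 and 3.15, 4.26 and 5.15 CPM in batch 2, with no overlap. It was 55.3-fold lower in batch 1 (L2FC -5.79 ± 0.33, adjusted p = 4.99e-25) and 19.7-fold lower in batch 2 (L2FC -4.30 ± 0.28, adjusted p = 2.29e-23). Diclofenac 400 µM (-3.46 and -3.21), ranitidine 4000 µM (-2.85 and -2.45) and isoniazid 10000 µM (-1.58 and -1.33) followed. Ketoconazole 15 µM lowered it by -0.58 and -1.06, a call lost without treated replicate 2 or 3 and without batch 1 vehicle replicate 1 or 2. Valproic acid lowered Tdo2 at 10000 µM (-1.28 and -0.65) and raised it at 400 µM, and the call at 10000 µM was lost with total counts and with same-plate vehicle wells.

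**Figure D2:**
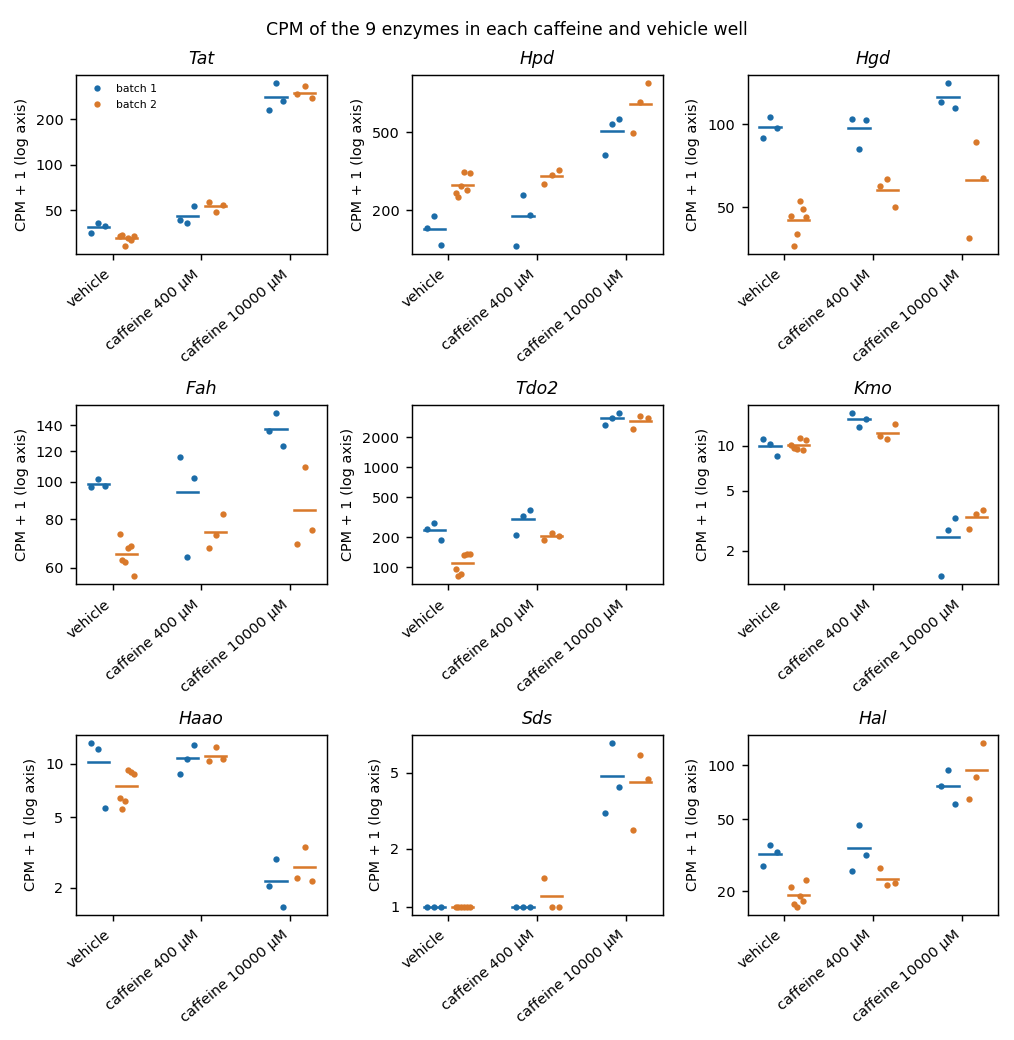
CPM plus 1 on a log axis for each of the 9 enzymes in vehicle, caffeine 400 µM and caffeine 10000 µM wells, blue for batch 1 and orange for batch 2, with 1 point per well and a bar at the mean. Tat, Hpd, Tdo2, Sds and Hal sit higher at 10000 µM in both batches, Kmo and Haao sit lower, and the Hgd wells of batch 2 overlap vehicle.

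Kmo hydroxylates kynurenine, the product that follows Tdo2, and no treatment was called higher for it. Without adjustment 1 treatment was higher in both batches at p under 0.05, and DESeq2 called 1. Lower calls were made for 9 treatments. Its largest fall was with acetaminophen 10000 µM, to 0.403, 0.550 and 0.615 CPM in batch 1 (2 to 4 counts per well) and 0.788, 1.03 and 1.07 CPM in batch 2. The vehicle wells read 7.50, 9.28 and 10.0 CPM in batch 1 and 8.33 to 10.3 CPM in batch 2 (median 8.95 CPM), so the groups did not overlap. The L2FC was -3.61 ± 0.37 (adjusted p = 1.27e-13) and -2.82 ± 0.28 (adjusted p = 5.04e-15).

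Where caffeine 10000 µM raised Tdo2, Kmo fell from 8.94 ± 1.31 to 1.46 ± 0.998 CPM in batch 1 and from 9.18 ± 0.795 to 2.36 ± 0.511 CPM in batch 2 (L2FC -2.43 and -1.85). The same opposed pair of calls was made with WY14643, which lowered Kmo by L2FC -1.59 and -2.63 at 8 µM and by -1.75 and -2.05 at 200 µM. Indomethacin 300 µM lowered Kmo by -1.12 and -1.40 with no call for Tdo2. With diclofenac, isoniazid and ranitidine at their high concentrations both genes were called lower. The call with valproic acid 10000 µM (-0.52 and -1.16) was lost when any 1 treated replicate was left out and, among other settings, without batch 1 vehicle replicate 1 or 2.

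Haao, which makes the precursor of quinolinate and NAD from 3-hydroxyanthranilate, was called lower in 6 treatments and higher in none. Without adjustment 0 treatments were higher in both batches at p under 0.05, and DESeq2 called 0. Its largest fall was with acetaminophen 10000 µM. In batch 1 the 3 wells held 0 counts, against 4.64, 11.1 and 12.1 CPM in vehicle. With a floor of 3 counts over the 3 wells, Haao was at least 48.7-fold lower in batch 1. In batch 2 one well read 1.15 CPM (10 counts) and the other two held none, against a vehicle range of 4.60 to 8.21 CPM with a median of 6.59 CPM. No well overlapped vehicle, with adjusted p = 3.52e-13 in batch 1 and an L2FC of -3.63 ± 0.44 (adjusted p = 2.03e-11) in batch 2.

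Ranitidine 4000 µM (L2FC -3.55 and -2.79), diclofenac 400 µM (-3.71 and -1.80) and caffeine 10000 µM (-2.79 and -1.90) also lowered Haao. With caffeine its mean was 1.18 ± 0.687 CPM and 1.62 ± 0.686 CPM. The smaller falls with isoniazid 10000 µM (-1.38 and -0.96) and ketoconazole 15 µM (-1.54 and -0.94) were lost with same-plate vehicle wells and without treated replicate 2, respectively.

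Sds, the serine dehydratase, was all but silent. It held 0 counts in all 9 vehicle wells, and the wells outside caffeine 10000 µM held 12 counts over 87 wells in batch 1 and 19 counts over 93 wells in batch 2, with at most 3 in a well. With caffeine 10000 µM, a treatment singled out after the values were seen, the wells held 12, 32 and 17 counts in batch 1 and 12, 41 and 28 counts in batch 2. This was 3.77 and 3.47 CPM when the wells of a batch were pooled. Against a floor of 3 counts over the vehicle wells of the batch, Sds was at least 24.3-fold and at least 46.2-fold higher. The ST assay carried a different Sds probe, and with it the caffeine wells held 34 counts in batch 1 and 37 in batch 2, with 0 in all vehicle wells (at least 15.0-fold and 22.2-fold higher). The highest other ST well, a medium well of batch 2, held 4 counts, as did the lowest caffeine well of that batch. These bounds cover counting error only.

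Hal, the histidine ammonia-lyase, was the member most often called lower by edgeR, with 10 treatments lower and 2 higher. Kmo had 9 lower, and both genes had 10 under DESeq2 and 11 without adjustment. The largest rise of Hal was with caffeine 10000 µM, with wells at 59.8, 75.6 and 92.6 CPM in batch 1 against 26.5, 32.1 and 35.0 CPM in vehicle. In batch 2 the wells read 63.9, 84.9 and 131 CPM against a lowest, median and highest vehicle well of 15.5, 17.3 and 22.3 CPM. The groups did not overlap, with L2FC 1.49 ± 0.25 (adjusted p = 5.85e-07) and 2.49 ± 0.19 (adjusted p = 1.30e-19), and the interaction was called (difference 1.00, adjusted p = 0.0267). Doxorubicin 2 µM was the other treatment that raised Hal, to 66.5 ± 3.27 and 67.3 ± 5.71 CPM (L2FC 1.20 and 1.84), while it lowered Tat (L2FC -0.90 and -1.11). In the doxorubicin 2 µM wells the Kupffer cell marker sum was 12.6% and 23.4% of vehicle and the stellate cell sum, in vehicle mostly Col1a2, 12.0% and 7.61%. The endothelial sum was near the floor, with median wells at 0.165 and 0.161 CPM against 2.37 and 1.94 CPM in vehicle. The part of these cell types in the changes of Hal and Tat was not tested.

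With acetaminophen 10000 µM Hal held 1 count over the 3 wells of batch 1, against 26.5 to 35.0 CPM per vehicle well. The ratio of vehicle to treated was 461 with a 95% exact interval from counting alone of 82.5 to 18254. In batch 2 the wells read 0.113, 0.355 and 0.687 CPM, all far below vehicle (L2FC -5.09 ± 0.38, adjusted p = 3.28e-20). WY14643 8 µM lowered Hal by L2FC -3.36 and -2.54 and WY14643 200 µM by -2.79 and -1.97. Valproic acid 10000 µM (-2.79 and -3.25) and diclofenac 400 µM (-2.93 and -2.86) were of like size. Naproxen 2000 µM, indomethacin 300 µM, sulfasalazine 100 µM, ketoconazole 15 µM and ranitidine 4000 µM lowered it by -1.75 to -1.04. In naproxen, indomethacin and sulfasalazine wells Tat was called higher as Hal was called lower.

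Read by treatment, caffeine 10000 µM moved all 8 tested members, 6 higher and 2 lower, where 21.7% of all genes were called higher and 20.5% lower. Acetaminophen 10000 µM lowered 7, where 30.7% of genes were lower and 30.4% higher. The median L2FC of the 8 was -3.86 (also with Haao in batch 1 set at its bound) and that of all tested genes -0.02. Diclofenac 400 µM lowered 7 (24.5% of genes were lower and 25.2% higher) and ranitidine 4000 µM 7 (18.7% and 20.6%). Isoniazid 10000 µM lowered 6 (8.09% and 6.27%), valproic acid 10000 µM 5 (21.0% and 22.0%) and ketoconazole 15 µM 5 (13.4% and 12.1%). None of these 5 treatments raised any of the 8. Hpd was not called in any of the 5. The 7 hepatocyte markers summed to less than in any vehicle well of the batch in every well of these 7 treatments. Their median sum was 22.3% and 17.6% of vehicle with diclofenac, 36.8% and 29.6% with ranitidine, 61.7% and 74.7% with acetaminophen and 52.8% and 46.4% with caffeine, in batches 1 and 2. It was 52.6% and 37.5% with valproic acid, 50.8% and 54.3% with ketoconazole and 70.0% and 60.2% with isoniazid. The markers were as uniformly below vehicle in both batches with treatments that lowered few or no members. Their median sum was 49.3% and 47.6% with naproxen 2000 µM, 65.4% and 56.4% with chloramphenicol 450 µM, 69.8% and 58.3% with indomethacin 300 µM, 71.7% and 67.7% with doxorubicin 2 µM and 81.0% and 79.8% with WY14643 200 µM. With simvastatin 60 µM and sulfasalazine 100 µM it was 97.3% to 110.5%. All indomethacin 300 µM wells were also below vehicle for the Kupffer cell (50.4% and 37.1%), stellate cell (59.0% and 31.3%) and cholangiocyte sums (47.1% and 44.6%). The low endothelial sum was below as well. All naproxen 2000 µM wells were below for the Kupffer cell (62.9% and 53.5%) and cholangiocyte sums (39.5% and 22.45%). With chloramphenicol 450 µM and WY14643 200 µM only the cholangiocyte sum of these lists was below in both batches. With valproic acid 10000 µM the cholangiocyte marker sum lay above all vehicle wells in both batches (142.1% and 170.3% of vehicle). The stellate cell sum, in vehicle mostly Col1a2, did so in batch 1 (167.1%, and 97.8% in batch 2). The Kupffer cell and endothelial sums lay below. With ranitidine the cholangiocyte sum lay above in batch 1 (136.2%) and below in batch 2 (54.1%). With acetaminophen, caffeine, diclofenac, isoniazid and ketoconazole at their high concentrations no sum of these 4 lists lay above all vehicle wells in either batch, and several lay below. All caffeine wells were below vehicle for the Kupffer cell sum (25.8% and 28.2%) and the stellate cell sum (20.6% and 11.4%). All acetaminophen wells were below for the stellate cell sum (38.3% and 31.4%) and the cholangiocyte sum (83.5% and 59.2%), and all diclofenac wells for the cholangiocyte sum (19.0% and 18.4%). All ranitidine wells were below for the stellate cell sum (50.7% and 30.2%) and the endothelial sum (12.7% and 17.7%), and all ketoconazole wells for the endothelial sum (40.4% and 53.8%). These endothelial sums were near the floor, with median wells at 0.299 and 0.344 CPM with ranitidine and 0.956 and 1.04 CPM with ketoconazole. These sums are shares of the library total, so they measure neither the number of hepatocytes nor the total mRNA per cell. In these bulk samples a smaller share of hepatocytes and less marker mRNA per hepatocyte cannot be told apart. The paper measured viability by ATP in a parallel set of wells, which was not used here. The part of cell number, of marker mRNA per hepatocyte or of the other cell types in the changes of the enzymes was not tested.

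**Figure D3:**
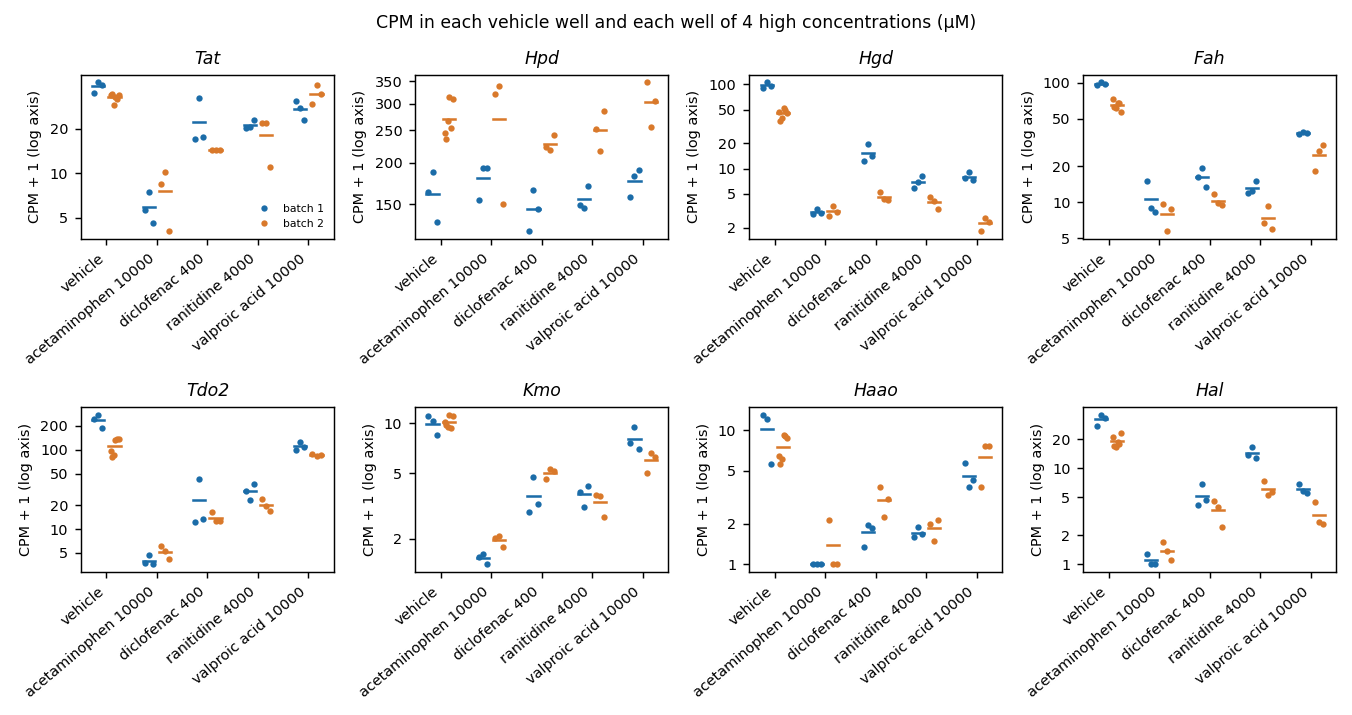
CPM plus 1 on a log axis for the 8 tested enzymes in vehicle wells and in wells of acetaminophen 10000 µM, diclofenac 400 µM, ranitidine 4000 µM and valproic acid 10000 µM, blue for batch 1 and orange for batch 2, with 1 point per well and a bar at the mean. Hgd and Fah wells sit below the vehicle wells of their batch in all 4 treatments, whereas Hpd wells overlap vehicle in each.

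WY14643 was the single chemical whose low concentration called members in both directions. At 8 µM Fah and Tdo2 were higher and Kmo and Hal lower, where 15.7% of genes were higher and 14.2% lower. At 200 µM the same 4 genes were called in the same directions and Hgd was added as higher (15.1% and 13.9%). Between 200 and 8 µM 0 of the 8 members were called, where 0.500% of all genes were higher and 0.667% lower, and DESeq2 called 1, higher. Without adjustment Tat alone differed at p under 0.05 in both batches (L2FC 0.82 ± 0.18 and 0.54 ± 0.17). The differences were 0.41 ± 0.22 and 0.37 ± 0.22 for Tdo2 and 0.13 ± 0.17 and 0.06 ± 0.20 for Fah.

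**Figure D4:**
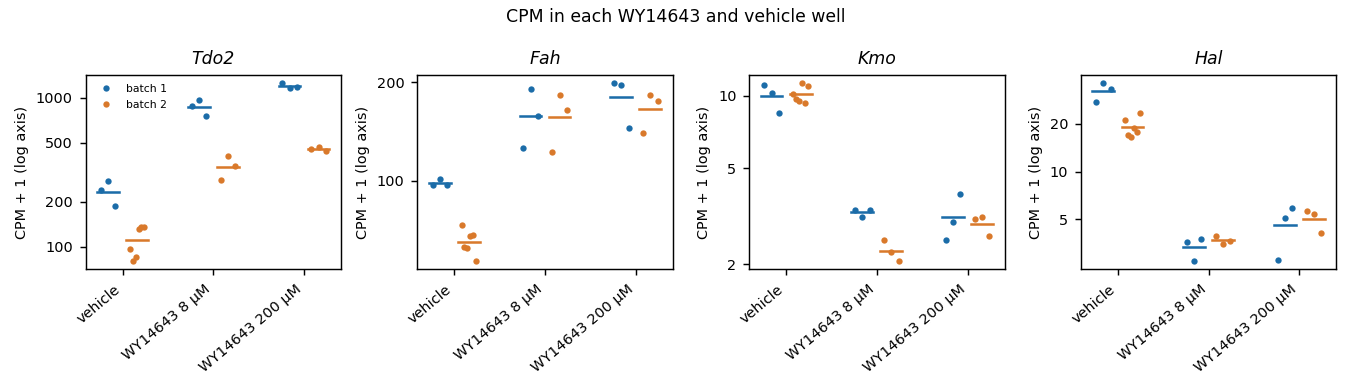
CPM plus 1 on a log axis for Tdo2, Fah, Kmo and Hal in vehicle wells and in wells of WY14643 8 µM and 200 µM, blue for batch 1 and orange for batch 2, with 1 point per well and a bar at the mean. At both concentrations the Tdo2 and Fah wells lie above the vehicle wells of their batch and the Kmo and Hal wells lie below.

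Sulfasalazine 100 µM raised 3 members and lowered 1 (background 7.59% and 5.27%), indomethacin 300 µM raised 2 and lowered 2 (16.0% and 14.3%), simvastatin 60 µM raised 3 (4.54% and 3.20%), naproxen 2000 µM raised 1 and lowered 1 (14.9% and 14.3%), and doxorubicin 2 µM raised 1 and lowered 1 (1.87% and 2.69%). At low concentrations valproic acid 400 µM raised 2 (6.63% and 4.44%), naproxen 80 µM raised 1 (2.88% and 1.09%) and simvastatin 2.4 µM lowered 1 (0.285% and 0.236%). The other 10 low concentrations and medium alone called none of the 8. Few genes of any kind were called at those 10. Sulfasalazine 4 µM had 0.677% higher and 0.147% lower, indomethacin 12 µM 0.540% and 0.0491%, ketoconazole 0.6 µM 0.0981% and 0.0294% and acetaminophen 400 µM 0.0294% and 0.0393%. For diclofenac 16 µM (0.0393%), ranitidine 160 µM (0.0294%) and caffeine 400 µM, chloramphenicol 18 µM and isoniazid 400 µM (0.00981% each) genes were called higher alone, and doxorubicin 0.08 µM called 0 genes. Without adjustment Fah (higher) and Hal (lower) with indomethacin 12 µM and Tdo2 (lower) with chloramphenicol 18 µM passed in both batches, and DESeq2 called 0 members at these 10. For medium alone, 0 members passed without adjustment in both batches and DESeq2 called 0, where 1.05% of genes were called higher and 0.206% lower. Tat in medium wells was at 34.0 ± 8.75 CPM in batch 1 and 21.7 ± 2.03 CPM in batch 2, and Tdo2 at 223 ± 17.3 and 92.8 ± 13.7 CPM.

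High against low concentration of the same chemical, a comparison that needs no vehicle well, called 15 of 112 member by chemical pairs higher and 48 lower (background 11.3% and 11.6%). Acetaminophen, diclofenac, ranitidine and valproic acid each lowered 7 members, where 28.3%, 23.7%, 16.2% and 21.6% of genes were lower. Simvastatin raised 6 at 60 µM relative to 2.4 µM (background 4.99%), with Tdo2 at L2FC 1.98 ± 0.23 and 2.05 ± 0.23. Caffeine raised Tat, Hpd, Tdo2 and Hal and lowered Kmo and Haao (20.0% and 19.4%). Hgd and Fah were not called between the caffeine concentrations.

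The size of a change, and for 1 pair its direction, was not shared by the batches. Tdo2 with sulfasalazine 100 µM passed the threshold higher in batch 1 and lower in batch 2. Its batch 2 minus batch 1 difference was -1.33 (interaction adjusted p = 0.00585 by edgeR). Other pairs differed in size. The test of the batch by treatment interaction called 15 of the 224 pairs (6.70%, against 2.44% over all genes), 6 of them for Hgd. Vehicle levels in batch 1 were 2.18 times those of batch 2 for Hgd, 1.73 times for Hal and 0.594 times for Hpd. Each batch is 1 rat and 1 library preparation, so animal and preparation cannot be told apart.

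**Figure D5:**
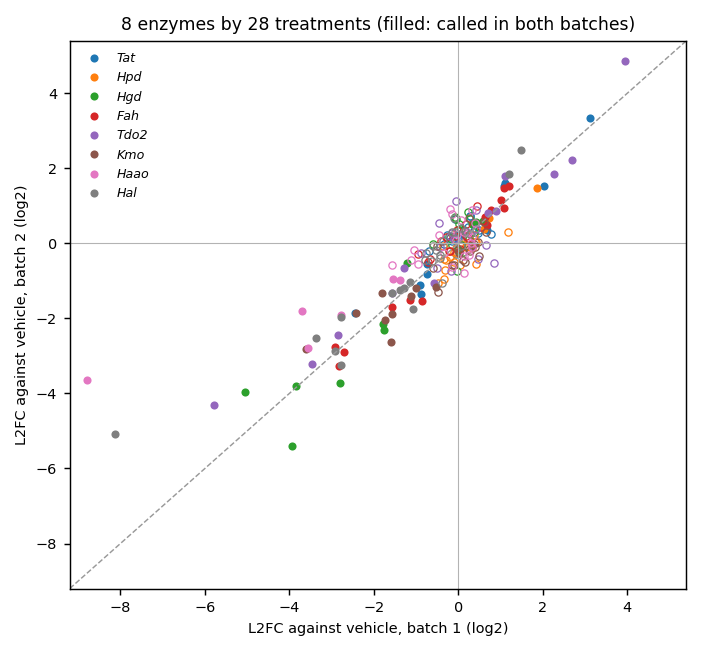
L2FC against vehicle in batch 1 (x axis, log2) and batch 2 (y axis, log2) for 8 enzymes by 28 treatments, 1 colour per gene, filled points for pairs called in both batches and open points for the others, with a dashed line of equality. Haao and Hal with acetaminophen 10000 µM lie furthest from the line, and their batch 1 positions are fitted values that rest on 0 and 1 counts and depend on the prior count of the fit.

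On the ST assay, run on the same wells, the 6 tested members gave 15 higher and 34 lower calls among 168 pairs (background 10.0% and 10.3%), and the WT assay gave 19 and 34 for the same 6. The assays shared 14 higher calls, 93.3% of those in ST and 73.7% of those in WT, and 30 lower calls, 88.2% of either. No pair was called in opposite directions. The ST value for Tdo2 with caffeine 10000 µM was 3.97 ± 0.25 and 4.81 ± 0.17, and for Hgd with valproic acid 10000 µM -3.46 ± 0.25 and -4.59 ± 0.26. Kmo, which has another probe on ST, was at -3.48 ± 0.61 and -2.88 ± 0.52 with acetaminophen 10000 µM.

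Other genes of amino acid breakdown were read from a list of 51, of which 43 were found in the WT table and 39 tested. Over the 28 treatments they gave 105 higher and 205 lower calls of 1092 pairs (9.62% and 18.8%, where 8.13% and 7.70% of all pairs were called). Acetaminophen 10000 µM lowered 31 of the 39 (79.5%, background 30.7%) and raised 1 (2.56%, background 30.4%). Among them Cth, which makes cysteine, fell by L2FC -4.51 ± 0.25 and -4.55 ± 0.19. Caffeine 10000 µM raised 12 (30.8%, background 21.7%) and lowered 8 (20.5%, the same as the background of 20.5%). Got1, the cytosolic aspartate aminotransferase, rose by L2FC 6.07 ± 0.12 and 5.89 ± 0.11 and Aass, which starts lysine breakdown, by 4.56 ± 0.19 and 3.04 ± 0.16. In the histidine route beside Hal, Uroc1 and Amdhd1 gave 3 higher and 18 lower calls of 56 (5.36% and 32.1%, background 8.13% and 7.70%). Amdhd1 fell with ranitidine 4000 µM by -3.31 ± 0.18 and -5.14 ± 0.21. WY14643 200 µM lowered 5 of the 39 (12.8%, background 13.9%) and raised 17 (43.6%, background 15.1%), among them all 5 tested genes of sulphur amino acids.

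Likeness of pattern was measured as Pearson's r over 60 group means (30 conditions in each batch, log2 of CPM plus 1, each batch centred on its mean). The 30 points of a batch share 1 animal and 1 library preparation, and a few treatments have large effects. The values are a description. The genes most like Hgd were Aldh8a1 (r = 0.967) and B3galt1 (0.940), the one most like Fah LOC100909929 (0.961), and those most like Haao Khk (0.923) and Upb1 (0.918). For Kmo they were Ralgps2 (0.904) and Psd3 (0.892), for Tdo2 Echs1 (0.885) and Crb3 (0.874), and for Hal Chd1l (0.890) and F5 (0.882). Tat was most like Etnppl (0.865) and Slc7a2 (0.864), and Hpd, with the lowest values, like Ip6k2 (0.806) and AABR07026424.1 (0.789). Among the members themselves r was highest for Hgd and Fah (0.896) and lowest for Hpd and Kmo (-0.256).

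In batch 1 all vehicle wells were on plate 4, while 6 of the 14 chemicals, acetaminophen and WY14643 among them, were on plate 5. Against vehicle, plate and treatment cannot be told apart for these chemicals in batch 1. Both concentrations of a chemical shared a plate, and between them acetaminophen lowered the same 7 members, with a median L2FC of the 8 of -3.73. Of the calls against vehicle of the other 5 chemicals on that plate, this comparison also called Tdo2 with chloramphenicol, Tat, Hal and Kmo but not Fah with indomethacin, Fah, Hgd and Tdo2 but not Haao or Hal with ketoconazole, and Hal but not Fah, Hgd or Tat with sulfasalazine. None was called for WY14643, whose low concentration had called 4 members itself. On plate 5 of batch 1 Tdo2 read 155 to 183 CPM with acetaminophen 400 µM. In batch 2 each plate held its own vehicle wells. The main fit nevertheless compared every batch 2 treatment with all 6 vehicle wells of both plates. Among these wells Tdo2 had a median of 84.2 CPM on plate 2 and 134.2 CPM on plate 3, and Haao 5.17 and 8.06 CPM. With same-plate vehicle wells 7 of the 75 calls were lost.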

How the data were processed

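The authors ran TempO-Seq, a probe ligation assay, and deposited raw counts of reads per probe and well for the WT and ST assays, aligned with STAR 2.5.3a to rn6 allowing 2 mismatches and counted with the Tempo-SeqR package. The members and gene lists were chosen with earlier results of these data known. Probes of 1 gene were summed, and genes averaging 10 counts or more over the 186 wells were tested. Each batch was fitted alone over its 30 conditions in edgeR 4.0.16 (R 4.3.3; quasi-likelihood F-test, TMM scaling), and p-values were adjusted over all genes by Benjamini-Hochberg. The SE is the L2FC divided by the square root of F. Since wells of a batch share 1 animal, p-values measure the spread between technical replicates. Printed levels are CPM of all probe counts, and levels of different genes are not compared because probe efficiencies differ. Wells are given in full for the largest called rise and fall of each member, by the mean L2FC of both batches. A few results on other genes are not reported here. DESeq2 1.42.0, other scalings, filters, vehicle wells and samples were alternatives. The procedure was tested on simulated counts. Intervals and floors cover counting error only.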

Additional observations from a re-analysis of the deposited data

Results flagged for a closer look

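For 5 of the 13 member and treatment pairs described well by well, the effect differed between the batches by the interaction test of edgeR. The batch 2 minus batch 1 difference in L2FC was -1.47 for Hgd with valproic acid 10000 µM (adjusted p = 0.000144), 0.90 for Tdo2 with caffeine 10000 µM (adjusted p = 0.0355) and 1.00 for Hal with caffeine 10000 µM (adjusted p = 0.0267). With acetaminophen 10000 µM it was 1.50 for Tdo2 (adjusted p = 0.0288) and 5.33 for Haao (adjusted p = 0.0476). The Haao difference is a fitted value that rests on 0 counts in batch 1 and on 1 well of 10 counts in batch 2. All 5 pairs were called in the same direction in both batches.

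Sds, left out of the tests by the filter on counts, was above the limit set by the vehicle wells with caffeine 10000 µM on both assays. Its pooled level was 3.77 CPM in batch 1 and 3.47 CPM in batch 2 on WT, and 12.0 CPM and 8.65 CPM on ST.

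Outlying wells were searched for only in the vehicle and medium wells of batch 2, which number 6 each, and not in treated wells, which number 3 per treatment and batch. Over the tested members of both assays this made 28 sets of 6 values, of which 0 held an outlying well by Dixon's criterion, which chance alone meets in about 1 set of 20.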

How the results depend on the processing

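No paired analysis was possible because the labels number wells by plate position and not by replicate. Among the 75 called member by treatment pairs, 60 kept their call under DESeq2, RLE and total-count scaling, no filter, other samples in the fit, same-plate vehicle wells and each treated replicate left out, and 0 were called in the opposite direction. Of the 15 that lost it, 9 did so with total counts and 7 with same-plate vehicle wells. Leaving out each vehicle well in turn kept 65 of the 75, and 59 were kept in all of these settings; batch 1 vehicle replicate 3 alone ended 6. Total counts moved the median L2FC of all genes by up to -0.44 (acetaminophen 10000 µM, batch 1). Members called higher numbered 26, and 14 where an absolute L2FC of at least 1 was also required. Leaving out 1 replicate gave 19 to 26 higher and 46 to 50 lower. With both batches in 1 fit, which asks for 1 call in place of 2, members higher at high against low concentration numbered 26 against 15, and other amino acid genes higher 190 against 105. With an absolute L2FC of at least 1 the other genes numbered 33 higher and 107 lower against 105 and 205. Among the 13 pairs described well by well, 1 value no longer passed in a batch, Hgd with caffeine 10000 µM in batch 2 without replicate 2 (0.27), and none changed sign. Outside these 13, Hpd with acetaminophen 10000 µM in batch 2 (0.39 to -0.0035) and Hgd with WY14643 200 µM in batch 1 (0.31 to -0.02) changed sign with total counts. Low counts limit Sds, Haao and Kmo.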
